A study of Mus musculus with 6 samples.

Results

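The spindle assembly checkpoint genes described here are Bub1b, Bub1, Bub3, Mad1l1, Mad2l1, Ttk, Cdc20, Zwilch and Zw10. Every probe set, the group of array probes that reads 1 transcript, was taken if the platform annotation gave it exactly 1 gene symbol and that symbol was 1 of these 9. This gave 15 of the 20380 probe sets that carry 1 symbol, and each of the 9 genes had at least 1. RNA from 6 lines of mouse embryo fibroblasts, cells grown out from embryos, was read on an Affymetrix array each, and the values are on a log2 scale, so that 1 unit is a doubling. The 3 chromosomally unstable lines were 2 BubR1 H/H lines, homozygous for a hypomorphic allele of BubR1 with wild-type CDC20, and 1 CDC20 AAA/AAA line with wild-type BubR1, whose CDC20 allele the labels also call hypomorphic. The 3 stable lines, wild type at both loci, were 2 BubR1 +/+ lines and 1 CDC20 +/+ line. All were grown for 2 passages in the same medium and under the same conditions. Each of the numbers 9515, 9938 and 10074 in the sample titles belongs to 1 unstable and 1 stable line, which are called a pair here. The BubR1 lines make up pairs 9515 and 9938, and pair 10074 is the CDC20 pair. Whether the lines came from separate embryos is not given in the sources used here, so a p-value reflects only how far these 6 lines scatter, and the CDC20 mutation is represented by 1 line.

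The checkpoint delays anaphase until every chromosome is attached to the spindle. At unattached kinetochores the kinase TTK, also called MPS1, starts a cascade in which BUB1 and BUB3, then MAD1 and MAD2, are recruited, with the help of a complex that contains ZW10 and ZWILCH. The product is the mitotic checkpoint complex of BUBR1, BUB3, MAD2 and CDC20, which blocks the anaphase-promoting complex that CDC20 would otherwise activate. BubR1 is the protein of Bub1b, and too little of it, or a CDC20 that escapes inhibition, lets cells divide with missegregated chromosomes. Transcripts of many of these genes are made mainly in dividing cells.

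Both lines of pair 9938 read high for Xist, the RNA that silences an X chromosome, at 10.70 in the unstable and 11.16 in the stable line, whereas the other 4 lines lay between 2.24 and 2.94. The Y-linked gene Eif2s3y went the other way, at 2.072 and 2.2 in pair 9938 and between 11.254 and 11.705 in the other 4 lines. Uty and Kdm5d, also Y-linked, had the same pattern. Pair 9938 thus read as female and the other pairs as male, so the BubR1 pairs differed in sex. The part of sex in differences between pairs was not tested. All 12 fibroblast markers, such as Col1a1 and Vim, reached at least 6.23 on every array, while 5 of 8 epithelial and 4 of 6 endothelial markers stayed below a log2 value of 4 on every array. Macrophage and leukocyte markers were present, with 11 of 12 tested and only Itgam below 4 on every array, and the mean of the list lay between 7.20 and 9.77 in unstable lines and between 7.35 and 9.65 in stable lines. In bulk RNA, fewer dividing cells and less transcript per dividing cell cannot be told apart.

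All 9 checkpoint genes were measured lower in the unstable line of every pair. This held for all 15 probe sets, beside 17.0% of all probe sets with 1 symbol and 18.3% of those tested. Of the 15, 13 entered the tests because 3 or more arrays read 4 or higher, and the other 2, both of Bub3, stayed below 4 on every array. Over the tested 13 the median difference was -0.15 in pair 9515, -0.68 in pair 9938 and -0.60 in pair 10074, against medians of 0.008, -0.025 and -0.010 over all 13589 tested probe sets. The median of the 13 over the group means was -0.46, and it depended on single lines: leaving out the CDC20 AAA/AAA line gave -0.21, and leaving out the stable line numbered 9938 gave -0.26. In 6 of the 13 every unstable line lay below every stable line, beside 6.26% of all tested probe sets and 5.79% of all with 1 symbol. These were the probe sets of Bub1b, Mad1l1 and Mad2l1, the brightest of Bub3 and 2 of the 3 of Cdc20.

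**Figure D1:**
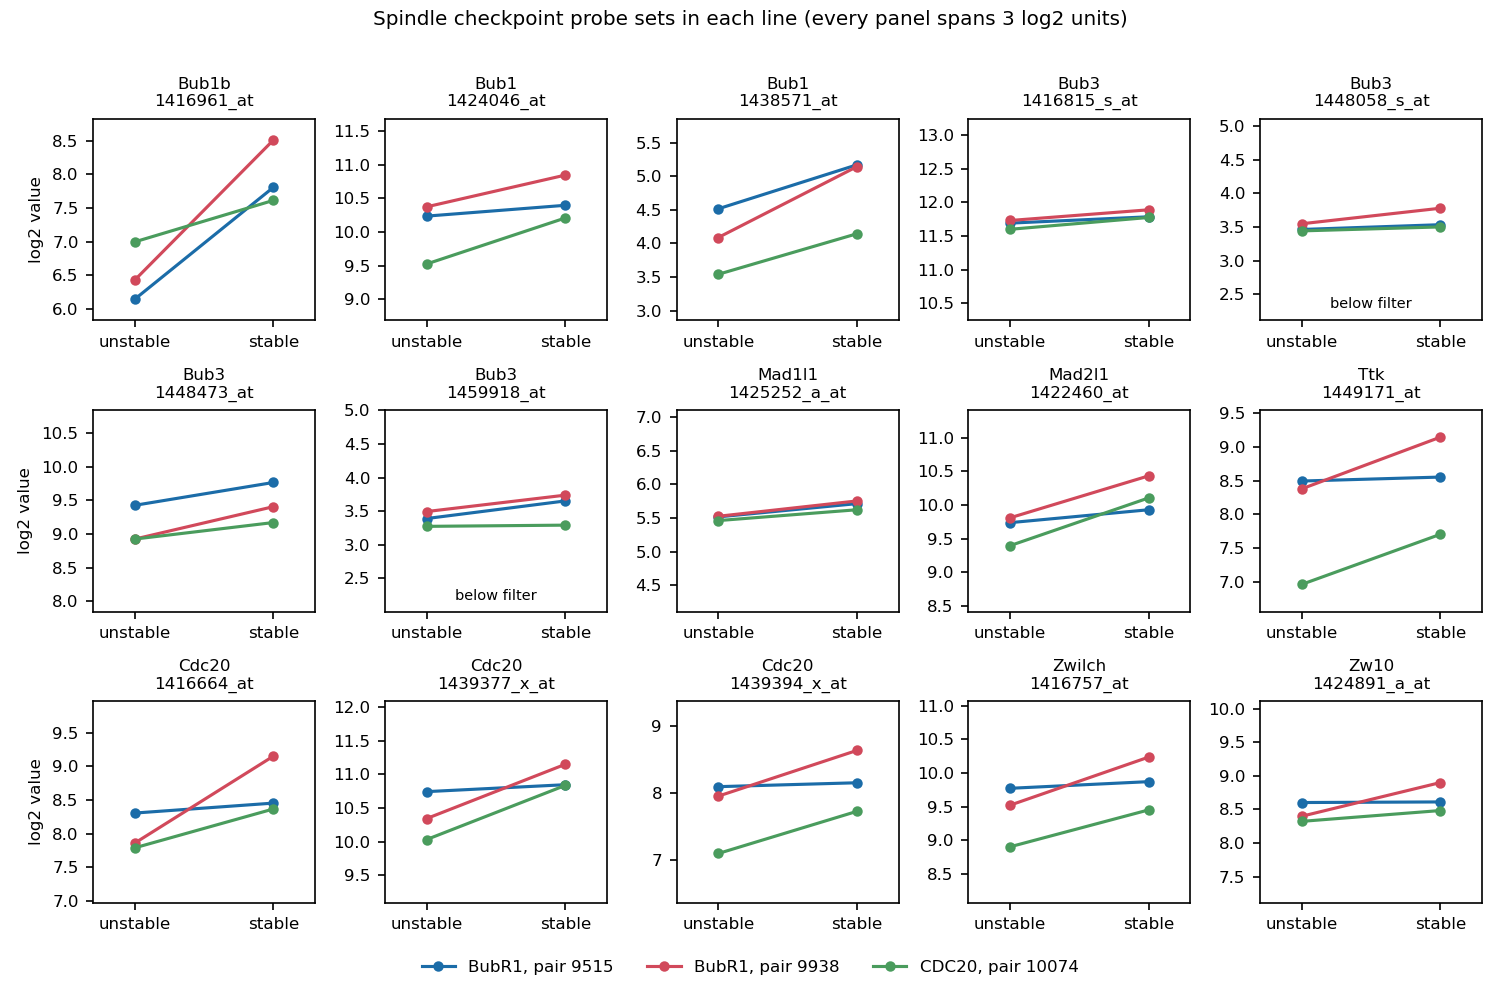
Log2 value of each of the 15 spindle checkpoint probe sets in each line, with the unstable line at the left, the stable line at the right and a line joining the 2 of 1 pair; each panel spans 3 log2 units. Every joining line rises to the right, most steeply for Bub1b in the BubR1 pairs, where the unstable lines measured 6.15 and 6.43 and the stable lines 7.81 and 8.51.

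No checkpoint probe set passed the test. With limma over 13589 probe sets 0 of the 13 were called, beside 0% of all tested probe sets in either direction, and the adjusted p of each of the 13 was 0.999. At an unadjusted p under 0.05, 4 of the 13 were lower and 0 higher, beside 2.74% of all tested probe sets that were lower at that level and 1.42% that were higher. Once pair numbers entered the model as a block, 10 of the 13 were lower at an unadjusted p under 0.05 and 0 higher, beside 6.07% and 4.67% of all tested probe sets, and again 0 were called. The smallest adjusted p among the 13 was then 0.292, for the dimmer Bub1 probe set. Standard errors of the unstable minus stable differences below are without the block unless stated. With the block they were smaller for each of the 13. An exact permutation test of 3 lines against 3 cannot give less than 0.1, so it was not used.

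Bub1b, the gene mutated in 2 of the lines, encodes BubR1, a component of the checkpoint complex that binds CDC20. Its only probe set measured 6.15, 6.43 and 7.00 in unstable lines 9515, 9938 and 10074, against 7.81, 8.51 and 7.61 in their stable lines. Both BubR1 H/H lines lay below the CDC20 AAA/AAA line, and all 3 lay below every stable line. The stable lines ranged from 7.61 to 8.51, with an SD of 0.47 (n = 3). The BubR1 H/H lines averaged 6.29 ± 0.20 and the BubR1 +/+ lines 8.16 ± 0.50 (SD, n = 2 each), which makes the transcript 3.66-fold lower. That difference of -1.87 (SE 0.29, 95% interval -2.69 to -1.05) had an unadjusted p of 0.0034 and did not pass over all probe sets (adjusted p = 1 by limma), beside 0% called in either direction. With the pair number as a block its unadjusted p was 9.2e-05, at an adjusted p of 0.314 by limma.

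Among all tested probe sets, the Bub1b difference ranked close to the lowest in the BubR1 pairs and less low in the CDC20 pair. Ordered from the lowest difference, it was number 9 of 13589 probe sets in pair 9515 and number 5 in pair 9938, but number 546 in the CDC20 pair. The other 12 tested checkpoint probe sets had medians of -0.13, -0.65 and -0.59 in pairs 9515, 9938 and 10074. The Bub1b difference minus that median was -1.54 and -1.43 in the BubR1 pairs and -0.03 in the CDC20 pair. For Bub1b the BubR1 effect minus the CDC20 effect was -1.26 (SE 0.50, 95% interval -2.68 to 0.16), which did not pass (unadjusted p = 0.0696, adjusted p = 1 by limma), beside 0% of all tested probe sets called. With the pair as a block the interval was -1.96 to -0.55 (unadjusted p = 0.0063, adjusted p = 0.568 by limma). The difference between the loci was therefore not resolved over all probe sets with 1 CDC20 pair.

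**Figure D2:**
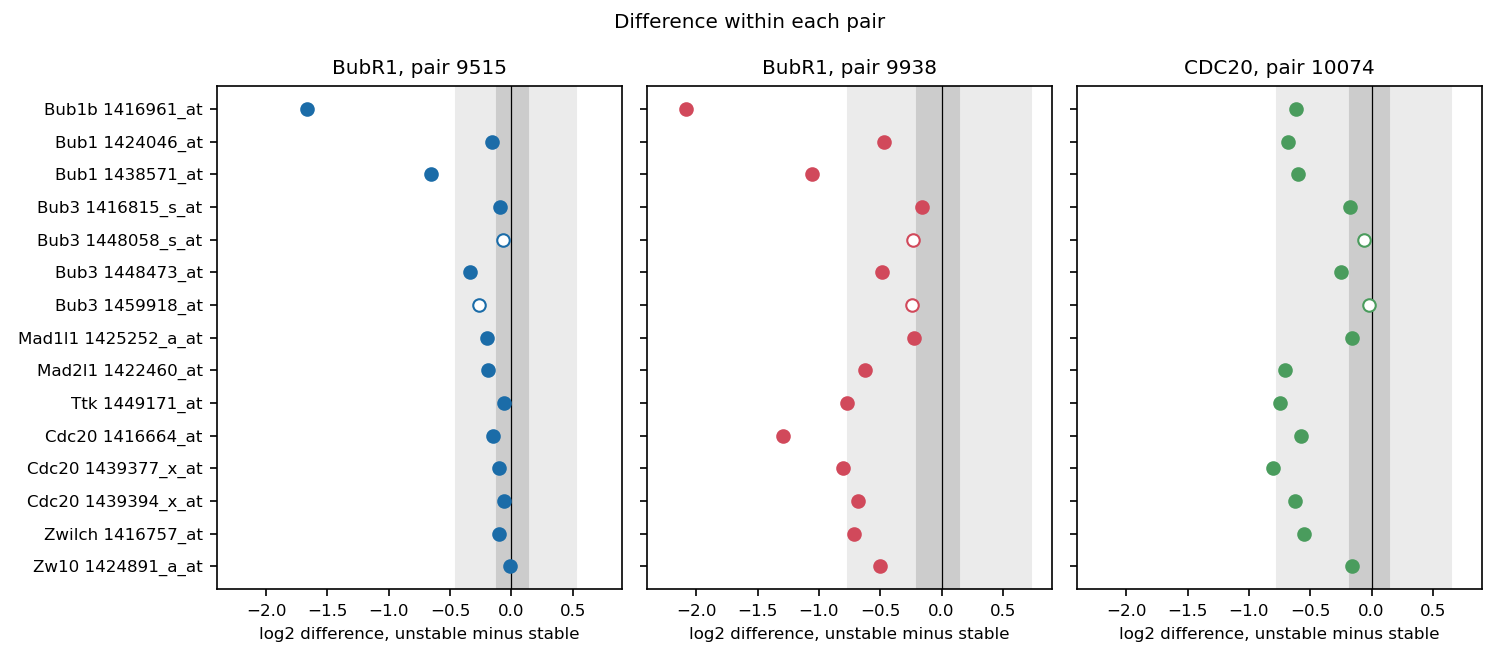
Log2 difference, unstable minus stable, of each spindle checkpoint probe set in each pair; open circles are the 2 Bub3 probe sets that were not tested, and the light and dark bands hold the middle 95% and the middle 50% of all tested probe sets. All points lie left of 0, Bub1b lies far outside the bands at -1.66 and -2.08 in the BubR1 pairs, and in pair 9515 most other members lie in or near the dark band.

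The promoters of 4 genes are printed because they belong to the genes mutated in the lines, Bub1b and Cdc20, and to the kinase genes Bub1 and Ttk, whose levels tracked each other across the lines. The RefSeq promoter table (build GRCm38.p6) held 8 of the 9 genes. Each line gives the 150 bases before the annotated start, 5′ to 3′ on the strand of the gene, and capitals mark CCAAT, the box bound by NF-Y, and TTTGAA, the letters of the cell-cycle homology region, on either strand (ATTGG and TTCAAA are their reverse).
Bub1b, chr2:118598061-118598210, plus strand: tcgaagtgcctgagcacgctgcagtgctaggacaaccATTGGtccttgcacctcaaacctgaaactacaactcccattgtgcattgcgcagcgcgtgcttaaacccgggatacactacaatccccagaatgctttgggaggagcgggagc
Cdc20, chr4:118437344-118437493, minus strand: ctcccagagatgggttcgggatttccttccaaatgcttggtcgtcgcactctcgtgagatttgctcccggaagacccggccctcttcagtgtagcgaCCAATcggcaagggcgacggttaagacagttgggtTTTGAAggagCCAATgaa
Bub1, chr2:127831860-127832009, minus strand: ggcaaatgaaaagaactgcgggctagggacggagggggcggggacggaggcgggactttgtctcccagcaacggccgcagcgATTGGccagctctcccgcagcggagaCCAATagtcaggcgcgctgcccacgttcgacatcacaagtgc
Ttk, chr9:83834539-83834688, plus strand: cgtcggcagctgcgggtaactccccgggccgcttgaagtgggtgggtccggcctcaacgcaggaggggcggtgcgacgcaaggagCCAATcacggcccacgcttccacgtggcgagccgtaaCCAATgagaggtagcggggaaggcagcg

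In these windows Cdc20, Bub1 and Ttk each held a pair of CCAAT boxes and Bub1b a single one, and only Cdc20 held TTTGAA, starting 18 bases before the start. In the whole window of the table, 250 bases before to 50 after the start, TTTGAA also began 41 bases into the Bub1b transcript and 8 bases into the Ttk transcript. Over that window CCAAT was present in 5 of the 8 genes, Bub1b, Bub1, Bub3, Ttk and Cdc20, beside 37.4% of all 32851 promoters, and TTTGAA in 5 of the 8, Bub1b, Bub3, Ttk, Cdc20 and Zw10, beside 17.9%. The letters CCCGC, part of many E2F sites, were in 8 of the 8, beside 46.6%, and GCGC, which can overlap CCCGC, in 7 of the 8, beside 47.1%. A gene counted if any of its promoters held the letters, whereas the percentages are of single promoters, so the shares are not like for like. Bub3 and Mad1l1 had more than 1 promoter, and each had a promoter without CCCGC. Such matches describe letters and do not show binding.

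Cdc20 is both the target of the checkpoint and the gene mutated in the CDC20 line. Its brightest probe set measured 10.74, 10.34 and 10.03 in unstable lines 9515, 9938 and 10074, against 10.85, 11.15 and 10.83 in the stable lines. All 3 unstable values lay below all stable ones, but in pair 9515 by little. The same separation held for a second probe set, at 8.31, 7.86 and 7.79 in unstable and 8.45, 9.15 and 8.37 in stable lines, which in pair 9938 was 2.45-fold lower and number 40 from the lowest of all tested probe sets. The third measured 8.09, 7.95 and 7.10 in unstable and 8.15, 8.63 and 7.73 in stable lines, and its groups overlapped. The platform marks the brightest and the third as able to bind other transcripts as well. The group difference was -0.57 (SE 0.20), -0.67 (SE 0.25) and -0.46 (SE 0.33) for these in turn, and none passed. Without the stable line of pair 9938 the second was -0.43 and the third -0.22. Without both lines of that pair the second was -0.36, and without the CDC20 AAA/AAA line the third was -0.15. In the CDC20 AAA/AAA line the 3 probe sets were 1.75-, 1.49- and 1.54-fold lower than in the CDC20 +/+ line. The BubR1 pairs were unlike each other. In the BubR1 H/H line the 3 were 1.75-, 2.45- and 1.6-fold lower in pair 9938, but 1.07-, 1.11- and 1.04-fold lower in pair 9515.

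The remaining partners in the checkpoint complex are MAD2, the protein of Mad2l1 that clasps CDC20, and BUB3, which docks BUBR1 and BUB1 at kinetochores. Mad2l1 measured 9.74, 9.81 and 9.40 in unstable lines 9515, 9938 and 10074, against 9.93, 10.44 and 10.11 in the stable lines, with no overlap between the groups. It was 1.14-, 1.54- and 1.64-fold lower, and the group difference was -0.51 (SE 0.18, 95% interval -0.94 to -0.08; unadjusted p = 0.0263, adjusted p = 0.999 by limma). The Bub3 difference was the smallest of the complex by its brightest probe set, which measured 11.69, 11.73 and 11.60 in unstable and 11.79, 11.89 and 11.78 in stable lines. Those groups did not overlap, yet the group difference was -0.14 (SE 0.09), at most 1.13-fold in any pair. A dimmer Bub3 probe set measured 9.43, 8.92 and 8.92 in unstable and 9.77, 9.41 and 9.17 in stable lines, with overlap and a group difference of -0.36 (SE 0.21), which was -0.20 without the stable line of pair 9515. The 2 Bub3 probe sets below the limit lay between 3.27 and 3.55 in unstable and between 3.29 and 3.78 in stable lines, where sizes cannot be read.

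The upstream kinases are TTK, which starts the signal, and BUB1, which phosphorylates histone H2A at centromeres and recruits the other checkpoint proteins. Ttk measured 8.50, 8.38 and 6.96 in unstable lines 9515, 9938 and 10074, against 8.55, 9.15 and 7.70 in the stable lines. Both CDC20-pair lines lay below all BubR1-pair lines, so the spread between pairs was larger than the difference within them. The group difference was -0.52 (SE 0.52), and it was -0.03 without the CDC20 AAA/AAA line, -0.19 without the stable line of pair 9938, -0.80 without the BubR1 H/H line of pair 9515 and -0.91 without the CDC20 +/+ line. With the pair as a block its standard error was 0.17, at an adjusted p of 0.392 by limma. Bub1 by its brighter probe set measured 10.24, 10.37 and 9.52 in unstable and 10.40, 10.85 and 10.21 in stable lines, a group difference of -0.44 (SE 0.27), which was -0.18 without the CDC20 AAA/AAA line and -0.26 without the stable line of pair 9938. Here the CDC20 pair had the widest gap, 1.61-fold, followed by 1.39-fold in pair 9938 and 1.12-fold in pair 9515. The dimmer one measured 4.52, 4.09 and 3.54 in unstable and 5.17, 5.14 and 4.14 in stable lines and differed more, by -0.77 (SE 0.36), with 1 array below the limit of 4, so the 2 probe sets of Bub1 gave the same direction and unequal sizes. With the pair as a block the standard error was 0.127 for the brighter and 0.122 for the dimmer Bub1 probe set. The adjusted p was 0.356 and 0.292 in turn by limma.

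MAD1, the protein of Mad1l1, anchors MAD2 at the kinetochore. Mad1l1 measured 5.52, 5.53 and 5.46 in unstable lines 9515, 9938 and 10074, against 5.71, 5.75 and 5.62 in the stable lines. The groups did not overlap and the pair differences were alike, -0.20, -0.23 and -0.16, with a group difference of -0.20 (SE 0.09, 95% interval -0.41 to 0.02). ZW10 and ZWILCH belong to the complex that brings MAD1 and dynein to kinetochores. Zwilch measured 9.77, 9.52 and 8.90 in unstable and 9.87, 10.24 and 9.45 in stable lines, with overlap and a group difference of -0.45 (SE 0.29), which was -0.21 without the CDC20 AAA/AAA line and -0.26 without the stable line of pair 9938. With the pair as a block the standard error for Zwilch was 0.142, at an adjusted p of 0.384 by limma. Zw10, which also acts in vesicle transport outside mitosis, measured 8.60, 8.40 and 8.32 in unstable and 8.61, 8.90 and 8.48 in stable lines. Its difference was close to 0 in pair 9515, at -0.009, and was -0.50 in pair 9938 and -0.16 in the CDC20 pair. Its group difference of -0.22 (SE 0.14) was -0.11 without the stable line of pair 9938 and -0.09 without both lines of that pair.

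The members largely shared which lines were highest and lowest. The stable line of pair 9938 was the highest of the 6 for 11 of the 13 tested probe sets, beside 23.9% of all tested ones, and the CDC20 AAA/AAA line the lowest for 11 of the 13, beside 18.1%. These places were not particular to the checkpoint genes. Of the 18 tested proliferation genes described below, 17 were highest in that stable line and 17 lowest in the CDC20 AAA/AAA line. Of the 18 tested outer kinetochore and partner genes, 16 were highest and 17 lowest in these lines. Among the 13 the exceptions were Bub1b, lowest in the BubR1 H/H line of pair 9515, and the dimmer Bub1 probe set, highest in the BubR1 +/+ line of pair 9515. The dimmer tested Bub3 probe set was also highest in that BubR1 +/+ line. Its lowest value, 8.923, was shared by the unstable lines of pairs 9938 and 10074, a tie not counted for the CDC20 AAA/AAA line. The pair difference was smallest in pair 9515 for 9 of the 15 and smallest in the CDC20 pair for the other 6. Across the 6 arrays the brighter Bub1 probe set correlated at Pearson's r of 0.95 with Ttk and with Zwilch and at 0.97 with the third Cdc20 probe set, but at 0.48 with Bub1b. These coefficients describe 6 arrays that share pairs and mutations.

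**Figure D3:**
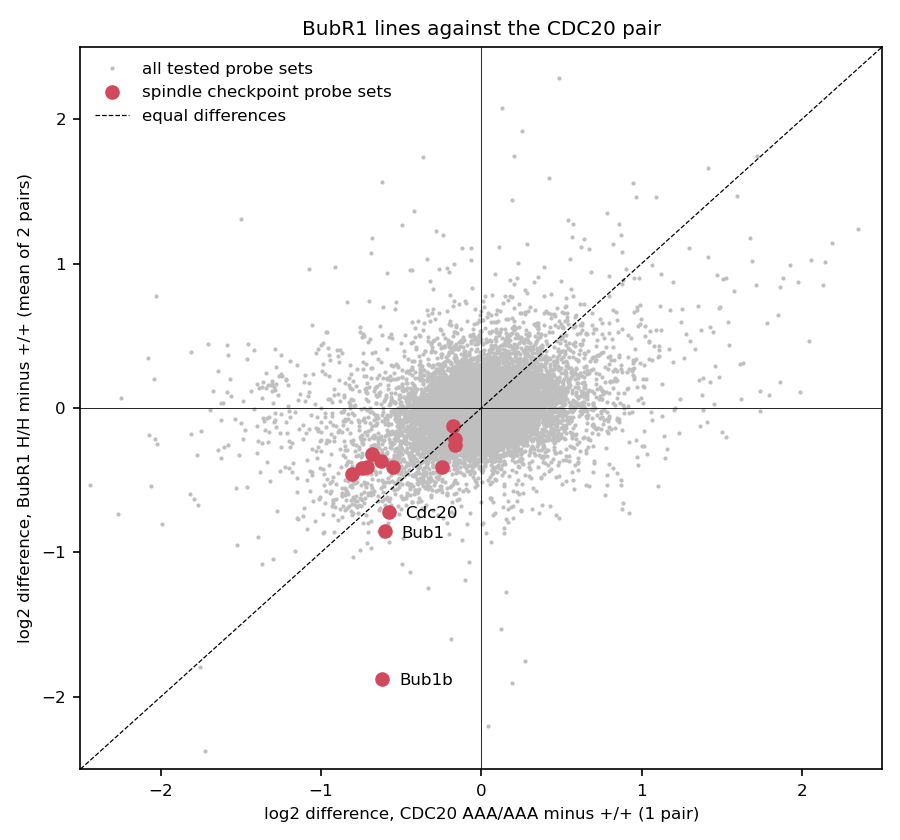
Mean log2 difference in the 2 BubR1 pairs (vertical) against that in the CDC20 pair (horizontal), with all tested probe sets in grey and the 13 tested spindle checkpoint probe sets in red; 9 probe sets lie outside the axes, which end at 2.5. Bub1b, at -1.87 and -0.62, lies well below the dashed line of equal differences, and of the other 12 members 7 lie above that line and 5 below it, among them the dimmer Bub1 probe set at -0.85 and -0.60.

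For the 12 tested probe sets other than Bub1b, the BubR1 effect was the smaller drop in 7 and the larger in 5. Without the block, all 13 had a 95% interval of the difference between loci that included 0, and 0 passed (adjusted p = 1 for each by limma). At an unadjusted p under 0.05 there were 0 of the 13, beside 1.06% of all tested probe sets lower and 0.545% higher. With the block there was 1, Bub1b, beside 2.30% lower and 2.79% higher. In the BubR1 lines alone 13 of the 13 differences were below 0, with a median of -0.41, which was -0.19 without the stable line of pair 9938 and -0.21 when all 3 stable lines served as controls. At an unadjusted p under 0.05, Bub1b and the dimmer Bub1 probe set (-0.85, SE 0.18) were lower in BubR1 H/H than in BubR1 +/+ lines and 0 of the 13 higher, beside 1.69% of all tested probe sets lower and 1.27% higher. With the block 3 of the 13 were lower, Bub1b, the dimmer Bub1 and the dimmer tested Bub3 probe set, beside 3.63% lower and 3.88% higher. The brightest Cdc20 probe set differed by -0.46 (95% interval -1.04 to 0.13) in this contrast, and by -0.25 without the BubR1 H/H line of pair 9938.

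The genes with profiles most like Bub1b across the 6 arrays, among 1841 genes that varied with an SD of at least 0.3, were Brca2 (r = 0.96), Orc1 (0.91), Exosc2 (0.91), Polr1a (0.89) and Polr3g (0.88). Brca2, a homologous recombination gene, measured 6.30, 6.39 and 6.39 in unstable lines 9515, 9938 and 10074, against 7.04, 7.24 and 6.97 in the stable lines. For Bub1 the closest were Kif11 (0.99), Trip13 (0.99), Cenpm (0.99), Kif2c (0.99) and Plk1 (0.99), which encode mitotic motors, a remodeller of checkpoint complexes, a centromere protein and a mitotic kinase. No gene was in both sets, and these are descriptions without a test.

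The wider pathway was compared through lists of other genes, each read by its brightest probe set. Of 25 outer kinetochore and checkpoint partner genes 18 were tested, and 17 of the 18 were lower in all 3 pairs, beside 19.3% of all 8382 tested genes read the same way. The list had medians of -0.30, -0.68 and -0.74 in pairs 9515, 9938 and 10074, while the 9 checkpoint genes, read the same way, had -0.10, -0.62 and -0.62. The members with the smallest unadjusted p were Spc25, a subunit of the NDC80 complex that binds microtubules, at -0.53 (SE 0.16), Pmf1 of the MIS12 complex at -0.49 (SE 0.17), Haspin, a histone kinase of the centromere, at -0.88 (SE 0.31), and Spdl1, which recruits dynein, at -0.60 (SE 0.24). None passed (adjusted p = 0.999 by limma).

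The next list held 24 genes of the anaphase-promoting complex, its activators, its substrates and related enzymes such as the kinase gene Cdk1. Of these 19 were tested, and 7 of the 19 were lower in all 3 pairs, beside the same 19.3% of all tested genes. Their medians were -0.01, -0.16 and -0.11 in pairs 9515, 9938 and 10074, closer to 0 than those of the checkpoint genes. The 4 with the smallest unadjusted p were not subunits of the complex: Cdk1 at -0.41 (SE 0.15), the cyclins Ccnb2 at -0.67 (SE 0.26) and Ccna2 at -0.52 (SE 0.27), and the ubiquitin-conjugating enzyme Ube2c at -0.40 (SE 0.22). Pttg1, the gene of securin, which the complex degrades at anaphase, differed the other way in pairs 9938 and 10074, by 0.16 and 0.43, and was singled out after its values were seen. None of the 19 passed.

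**Figure D4:**
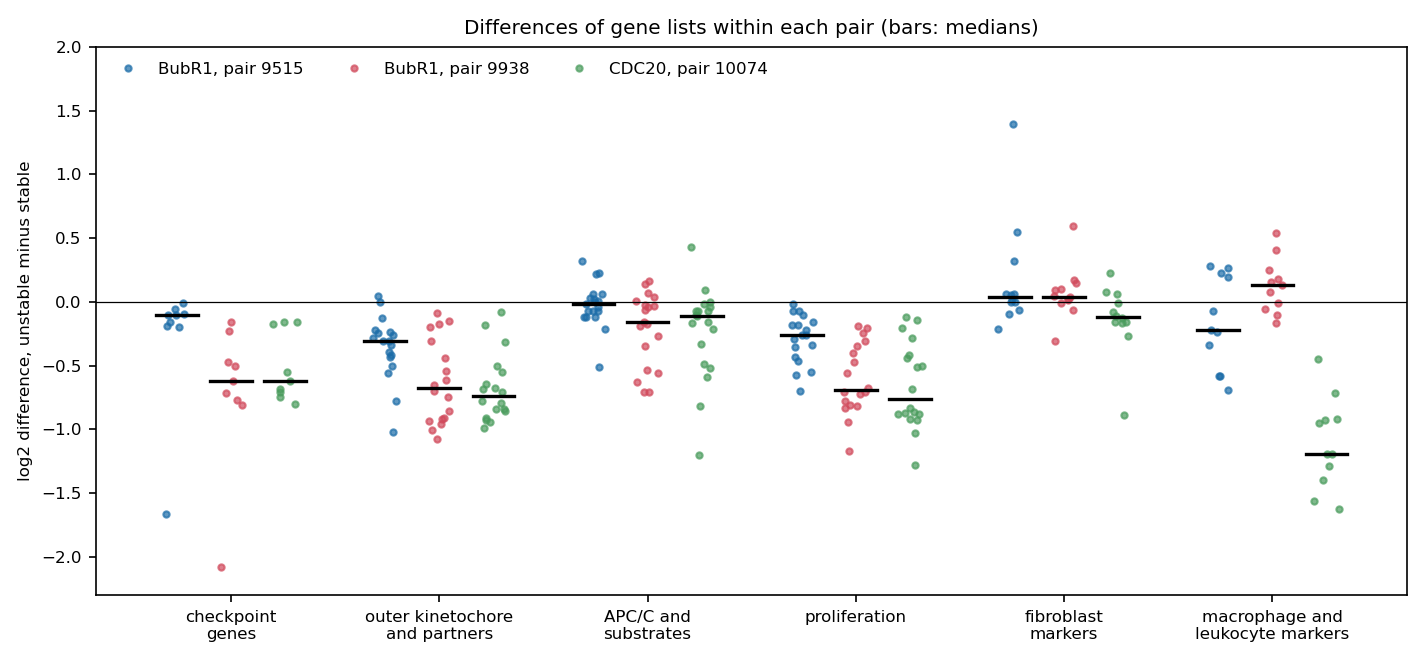
Log2 difference, unstable minus stable, of each tested gene of 6 lists in each pair, with black bars at the medians. Checkpoint and proliferation genes lie below 0 in each pair, as do 17 of 18 outer kinetochore genes in pair 9515, with checkpoint medians of -0.10, -0.62 and -0.62. Single fibroblast markers spread to both sides of 0 around medians of 0.04, 0.04 and -0.12, and macrophage markers have a median of -1.19 in the CDC20 pair.

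Genes of DNA replication and proliferation were lower beside the checkpoint genes. Of 20 listed, 18 were tested and 18 of the 18 were lower in all 3 pairs, beside 19.3% of all 8382 tested genes read the same way. Medians were -0.26, -0.69 and -0.76 in pairs 9515, 9938 and 10074, and 0 passed, beside 0% of all tested probe sets. In 13 of the 18 every unstable line lay below every stable line, beside 6.26% of all tested probe sets. At an unadjusted p under 0.05 by limma 10 were lower, beside 2.74%, and with the pair as a block 15, beside 6.07%. These shares are of probe sets, not of genes read by 1 probe set each, so they are not like for like. Of the 9 checkpoint genes, read by their brightest probe sets, 5 lay apart in this way. At that p, 3 were lower without the block and 6 with it. The examples by unadjusted p were the polymerase gene Pole at -0.74 (SE 0.16), Mcm10 at -0.76 (SE 0.17), Ccne1 at -0.62 (SE 0.15) and Ccne2 at -0.57 (SE 0.17). Fibroblast markers had medians of 0.04, 0.04 and -0.12, but single ones differed by as much as checkpoint genes or more: Dcn by 1.39 in pair 9515 and Lum by -0.89 in the CDC20 pair, both singled out after their values were seen. The medians of macrophage and leukocyte markers were -0.22, 0.13 and -1.19. The part of proliferation or of macrophage content in the lower checkpoint transcripts was not tested.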

How the data were processed

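The deposited values are log2 values per probe set, made by the authors with GCRMA 2.28.0 in R 2.15.3, per the submitters' processing notes. GCRMA corrects background and brings arrays to a common distribution, so overall brightness is not comparable. Array medians lay between 6.156 and 6.196. Scanner files were not analysed here, and precision is limited by having 6 arrays. Of 22626 probe sets, 20380 had 1 symbol in the platform annotation, 691 had several and 1555 were not listed. By Entrez identifier 20351 matched a RefSeq gene table, and no symbol changed.

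The 13589 probe sets that read 4 or higher on 3 or more arrays were fitted by limma 3.58.1 in R 4.3.3 with eBayes. Tests were two-sided, and a call needed a Benjamini-Hochberg adjusted p under 0.05. The unstable minus stable fit had no block. BubR1 H/H was set against BubR1 +/+, and the loci against each other, in a model with 4 genotype groups. The fits were also run on simulated arrays with independent noise for each probe set. That run checked the code and does not show how the fits perform on the real arrays. Same-numbered lines, paired by the sample titles, deviated together from their group means (r = 0.768, 0.612 and 0.588), so blocked values stand where they change a count. Lines with different numbers had r from -0.610 to 0.103. Centring each group on its own mean forces these values down where same-numbered lines go together, so they are no separate evidence of pairing.

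The members and lists were chosen with earlier results of these data known. Named were all members, up to 4 genes a list by unadjusted p, and the 5 genes most correlated with Bub1b and with Bub1. Alternatives were the block, other filters, 1 probe set or the mean per gene, recentring, renormalization, another prior, other controls, and leaving out lines or pairs.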

Additional observations from a re-analysis of the deposited data

How the results depend on the processing

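In the unstable minus stable, BubR1 and between-locus comparisons, 0 probe sets and 0 checkpoint members were called by limma under every alternative run: the pair as a replicate block, no filter, a filter at 6, 1 probe set per gene, the mean of probe sets, median centring, quantile normalization, an intensity trend with a robust prior, each line or pair left out, the BubR1 lines alone, and all 3 stable lines as controls. With the replicate block the smallest adjusted p over all probe sets was 0.292, 0.26 and 0.446 for these comparisons. At an unadjusted p under 0.05 there were 566, 402 and 218 probe sets without the block and 1460, 1020 and 691 with it. Every checkpoint difference stayed below 0 in the unstable minus stable and BubR1 comparisons under these alternatives. With single lines or pairs left out, the median of the members was -0.653 to -0.206 for unstable minus stable and, with single BubR1 lines left out, -0.606 to -0.193 for BubR1. Bub1b ranged from -1.873 to -1.141 and from -2.225 to -1.521. The difference between loci was less settled. Its member median, 0.049, ranged from -0.003 to 0.207 when a BubR1 line was left out, and 3 to 7 members were below 0. It changed sign for Bub3 with the mean of probe sets (-0.111). With 1 line left out it changed sign for both tested Bub3 probe sets (-0.003 to 0.101 for the brighter, -0.416 to 0.086 for the dimmer), Zwilch (-0.040 to 0.325), the second Cdc20 probe set (-0.492 to 0.207) and Zw10 (-0.238 to 0.050). In such fits the lone line was assumed to vary like the others. The blocked fit of the BubR1 lines alone was added after seeing the data.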
